A study of Mus musculus with 2 samples.

Results

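The 10 genes described here are Cd14, Ly96, Myd88 and the toll-like receptor genes Tlr2, Tlr3, Tlr4, Tlr7, Tlr9, Tlr12 and Tlr13. They were taken by symbol from a list of 32285 genes, all 10 were found, and their unique molecular identifiers (UMIs, each standing for 1 captured RNA molecule) were counted in cell classes that were set by other genes.

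Single cells were sequenced from the kidneys of 9-week-old male C57BL/6 mice after bilateral renal ischemia-reperfusion injury (IRI). Just ahead of reperfusion 1 mouse received JPI-289, an inhibitor of poly(ADP-ribose) polymerase (PARP), at 100 mg/kg into the peritoneum, and 1 control mouse received saline. The kidneys were taken at 24 h. Both libraries are therefore post-ischemic, neither condition has a replicate, and no test between the conditions was made. The intervals given are exact 95% intervals for counting error and do not hold the difference between mice or the spread of UMIs between cells.

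Toll-like receptors are membrane proteins that bind molecules of microbes or molecules released by damaged cells. TLR2 and TLR4 act at the cell surface. TLR4 binds lipopolysaccharide together with its partner MD-2, the product of Ly96, after CD14 has handed the ligand over. TLR3, TLR7, TLR9 and TLR13 act in endosomes, where TLR3 binds double-stranded RNA, TLR7 single-stranded RNA, TLR9 DNA with CpG motifs and TLR13 bacterial ribosomal RNA, and TLR12 is a mouse receptor for the profilin of parasites. The adaptor MyD88 carries the signal of these receptors, TLR3 excepted, to the kinases that release NF-kB, and in kidney IRI the family is known for its part in the early inflammatory response.

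The promoters of 4 members are printed because Tlr2 and Tlr13 had nearly the same pattern over cell classes, Tlr12 was found almost only in proximal tubule and Myd88 had Nfkbia, a classic NF-kB target, among the genes most like it. Each window runs from 250 bases before to 50 bases after the gene's start in RefSeq, on build GRCm38.p6. Such windows were found for 6 of the 10 members. Capitals mark matches, on either strand, to an NF-kB motif written GGGNNTTNCC in Tlr2, an interferon response element written GAAANNGAAA in Myd88 and a PU.1 box written GAGGAA in Tlr13.
Tlr2: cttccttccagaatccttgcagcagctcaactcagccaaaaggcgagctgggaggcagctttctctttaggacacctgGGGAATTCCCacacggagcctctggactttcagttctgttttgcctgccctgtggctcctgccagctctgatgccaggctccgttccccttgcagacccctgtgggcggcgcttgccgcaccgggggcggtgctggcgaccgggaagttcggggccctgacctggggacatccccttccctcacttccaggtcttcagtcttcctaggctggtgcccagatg
Tlr13: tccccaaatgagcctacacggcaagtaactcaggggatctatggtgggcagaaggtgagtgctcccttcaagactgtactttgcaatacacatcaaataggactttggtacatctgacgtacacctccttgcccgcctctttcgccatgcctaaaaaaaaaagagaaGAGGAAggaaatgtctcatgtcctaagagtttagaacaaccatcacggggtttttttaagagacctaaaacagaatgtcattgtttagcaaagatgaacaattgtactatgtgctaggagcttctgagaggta
Tlr12: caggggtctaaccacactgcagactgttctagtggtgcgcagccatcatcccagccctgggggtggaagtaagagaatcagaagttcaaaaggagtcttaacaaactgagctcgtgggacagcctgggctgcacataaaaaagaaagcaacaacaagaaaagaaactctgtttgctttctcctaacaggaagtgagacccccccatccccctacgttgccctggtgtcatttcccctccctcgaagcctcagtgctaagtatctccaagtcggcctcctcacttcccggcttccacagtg
Myd88: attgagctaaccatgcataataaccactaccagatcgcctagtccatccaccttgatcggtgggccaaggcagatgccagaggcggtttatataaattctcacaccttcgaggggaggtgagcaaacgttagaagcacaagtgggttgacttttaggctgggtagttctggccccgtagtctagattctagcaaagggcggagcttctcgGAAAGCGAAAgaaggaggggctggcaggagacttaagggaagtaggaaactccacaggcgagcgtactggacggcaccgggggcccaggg

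The Tlr2 window (chr3:83841559-83841858, minus strand) holds its NF-kB match 172 bases before the start, and 4.79% of the 32851 promoters in the table hold this motif. The Tlr13 window (chrX:106143025-106143324, plus strand) holds its PU.1 box 83 bases before the start, as 28.3% of promoters do somewhere. The Myd88 window (chr9:119339969-119340268, minus strand) holds the interferon response element 40 bases before the start, with 3.44% of promoters sharing the motif. The Tlr12 window (chr4:128618570-128618869, minus strand) has none of the motifs. The windows of Tlr3 and Tlr9, not printed, hold an NF-kB match 211 bases before the start and PU.1 boxes 112 bases before and 12 bases after it. The matches are letters in a window and were not tested for binding.

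The control library held 38328760 UMIs and the JPI-289 library 35548396, and 3753 and 5041 cells were kept with medians of 2053 and 1866 UMIs. The libraries shared 23 cell barcodes, where 25.7 would follow from their sizes and a list of 737280 possible barcodes. Clusters were named from marker genes. Proximal tubule-like (PT-like) cells numbered 1797 in control and 1652 in JPI-289 cells, endothelial cell-like (EC-like) cells 498 and 567, neutrophil-like cells 196 and 652, macrophage-like cells 132 and 171 and monocyte-like cells 69 and 131. Thick ascending limb-like (TAL-like) cells numbered 272 and 395, distal convoluted and connecting tubule-like (DCT/CNT-like) cells 226 and 261, collecting duct-like (CD-like) cells 127 and 447, stroma-like cells 203 and 112 and red blood cell-like (RBC-like) cells 77 and 123. The neutrophil-like cells were led by Retnlg, S100a9 and S100a8, the macrophage-like cells by Cd74 and C1q genes and the monocyte-like cells by Lyz2 and Chil3, and Ly6c2 and the other monocyte markers were all detected in the last. Podocyte-like and lymphocyte-like cells, with 13 and 6 control cells, were set aside as too few. Most PT-like clusters came from 1 library, so a difference in PT-like cells is also a difference between clusters. The PT-like clusters with 996 and 347 JPI-289 cells were led by the marker list of injured PT, which includes Havcr1 and Krt20. The cluster with 294 JPI-289 cells and the large control PT-like clusters were led by the PT list. The PT-like ratios thus do not set like cells against each other.

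A level is given in counts per 1000000 (CPM), the UMIs of the gene for every 1000000 UMIs of the class, and the log2 ratio is that of JPI-289 over control with 0.5 UMIs added to each count. A member was measured in a class where it had at least 20 UMIs over both libraries. In PT-like cells 5 members were measured, of which Cd14 alone lay past 2-fold higher in JPI-289 and Tlr12 alone past 2-fold lower, where 9.14% and 23.6% of all 11318 measured genes did so. In EC-like cells 6 were measured, with Cd14 past 2-fold higher (background 5.18%) and Ly96 past 2-fold lower (background 18.4%). Of 7 measured in neutrophil-like cells, Tlr7 was past 2-fold higher and 0 were past 2-fold lower, against backgrounds of 11.5% and 10.5%. In macrophage-like cells 0 of 6 were past 2-fold higher and Tlr4 was past 2-fold lower, against 11.0% and 17.2%. Monocyte-like cells had 0 of 7 past 2-fold higher and 3 past 2-fold lower, namely Ly96, Tlr7 and Tlr2, against 10.4% and 12.6%. In TAL-like cells 2 members were measured and 0 passed 2-fold in either direction (8.61% of genes higher, 10.6% lower), and in CD-like cells 3 were measured and 0 passed (7.39% higher, 13.9% lower). Of these, Cd14 in EC-like cells (0.95) and Tlr7 in neutrophil-like cells (0.75) lay inside 2-fold when cells were called by the UMI threshold alone, and Tlr2 in monocyte-like cells (-0.98) when the highest doublet scores were dropped. With so few members in a class these counts do not set the members apart from other genes.

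**Figure D1:**
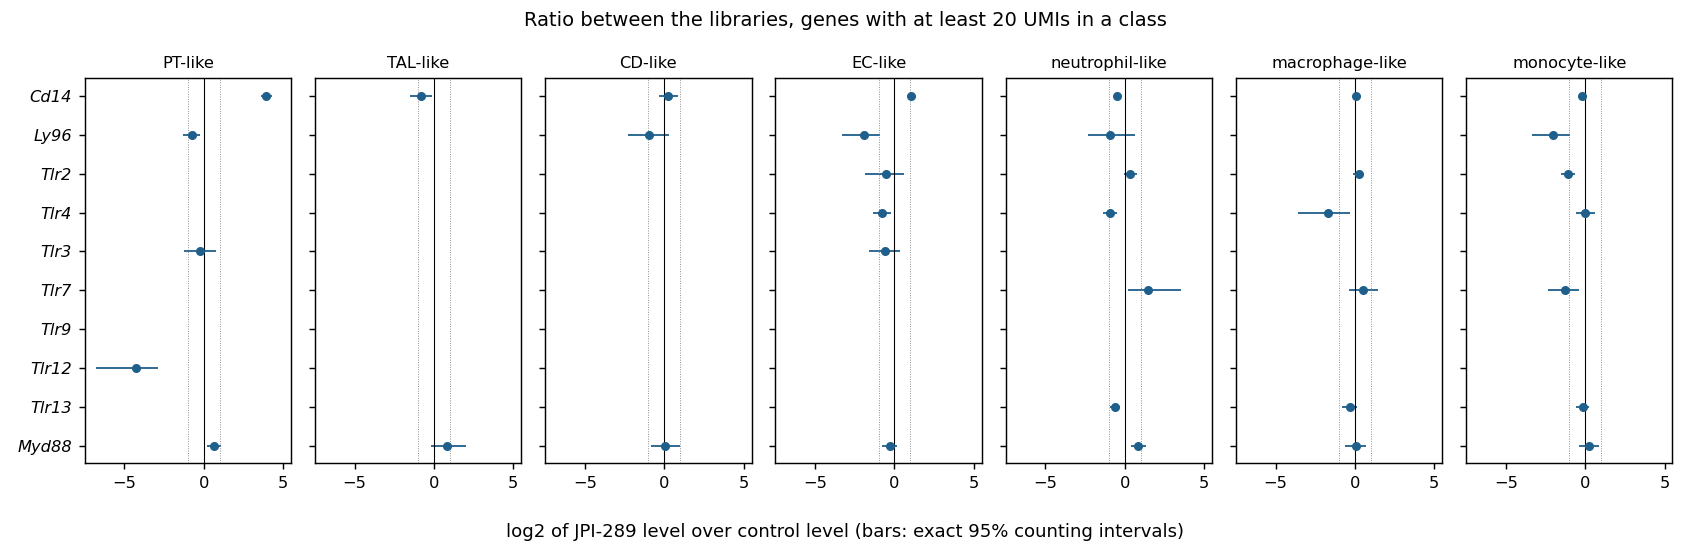
Log2 ratio of the JPI-289 over the control level (horizontal axis) of each member with at least 20 UMIs in a class, 1 panel per class. Points are the ratios, bars are exact 95% counting intervals, the solid line is 0 and the dotted lines are 2-fold. Cd14 in PT-like cells (3.92) and Tlr12 in PT-like cells (-4.29) lie farthest from 0.

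Cd14 encodes the surface protein that passes lipopolysaccharide to TLR4 and MD-2, and lies on chromosome 18 with its gene at 36725067 to 36726798 on the minus strand (GENCODE vM21, GRCm38). It was read deeply, with 8021 UMIs in control cells and 14797 in JPI-289 cells, of which neutrophil-like cells held 40.0% and 56.9%. In the control library its level was 7368.2 CPM in neutrophil-like, 4092.3 in macrophage-like and 2912.5 in monocyte-like cells. It was 124 in EC-like, 49.7 in TAL-like, 35.8 in CD-like, 10.3 in PT-like, 10.2 in DCT/CNT-like and 6.49 in stroma-like cells, with 0 UMIs in RBC-like cells, where 3 counts would be 21.1 CPM. The leukocyte classes and EC-like cells were separated by their intervals, whereas those of TAL-like and CD-like cells overlapped, as did those of PT-like, DCT/CNT-like and stroma-like cells.

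In the JPI-289 library the order of the leukocyte classes was the same, at 5231.3, 4306.9 and 2573.2 CPM in neutrophil-like, macrophage-like and monocyte-like cells. EC-like cells followed with 250 and PT-like cells with 157 CPM. The other classes described lay between 28.0 in TAL-like and 44.1 in RBC-like cells, and their intervals all overlapped that of RBC-like cells. The Cd14 levels of TAL-like (34 UMIs), CD-like (66), DCT/CNT-like (26) and stroma-like cells (16) in this library could thus not be told apart from the RBC-like level. PT-like cells, which lay below TAL-like and CD-like cells in the control library, came directly behind EC-like cells.

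**Figure D2:**
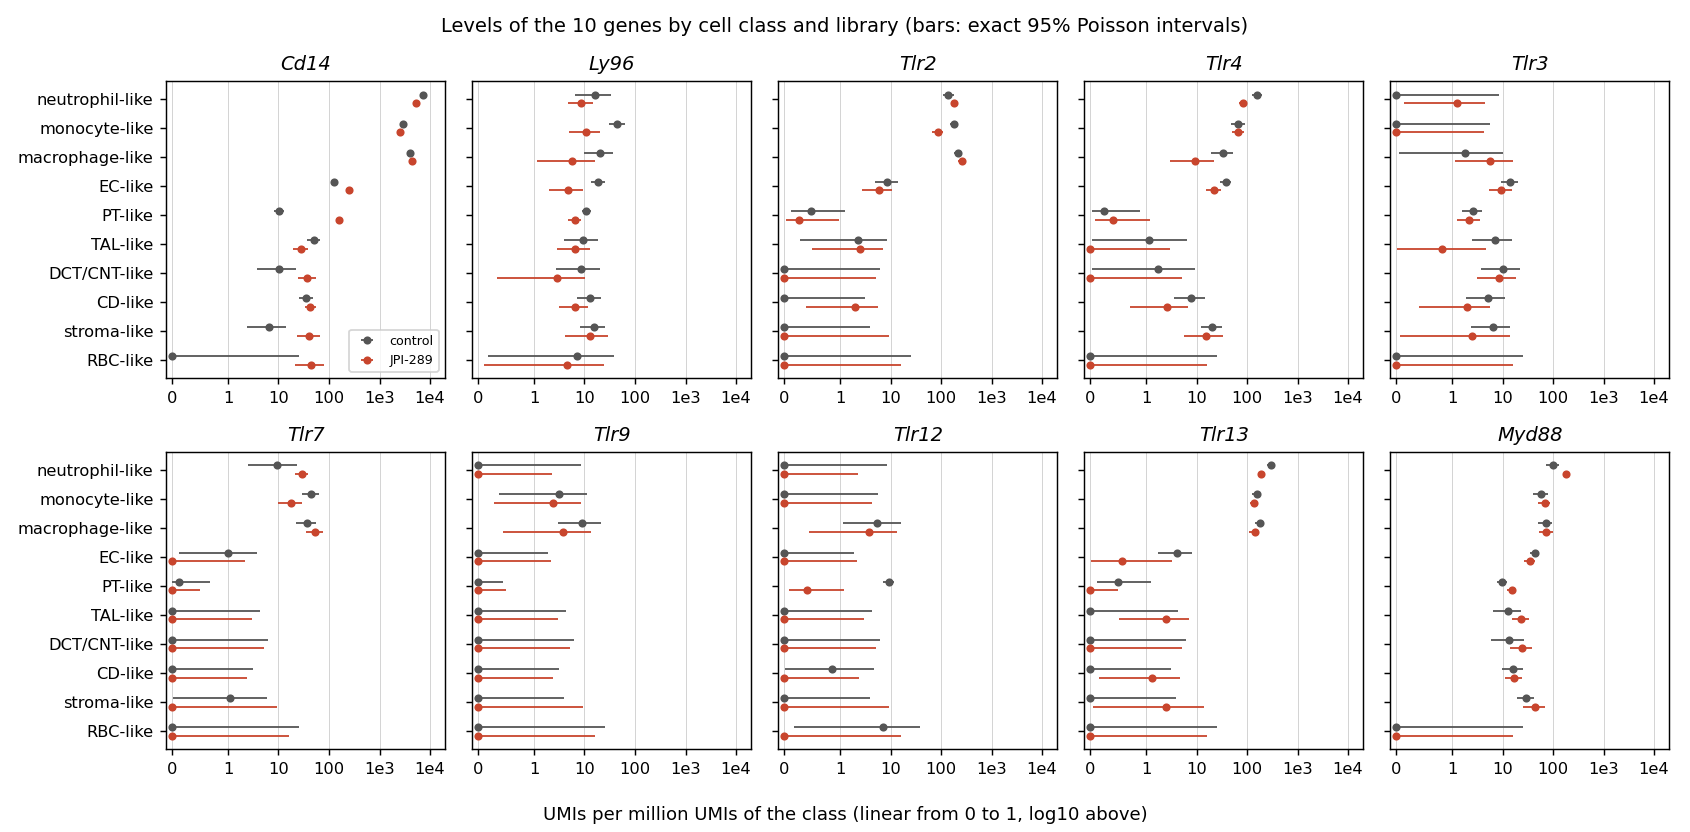
CPM (horizontal axis, linear from 0 to 1 and log10 above) for each of the 10 genes, 1 panel per gene, in 10 cell classes of the control (grey) and JPI-289 (red) library. Points are levels and bars exact 95% Poisson intervals. Cd14 in PT-like cells is at 10.3 and 157 CPM, Tlr12 is found in PT-like cells of the control library, and Tlr2, Tlr7 and Tlr13 are found mainly in the leukocyte classes.

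PT-like cells held 84 Cd14 UMIs in control and 1157 in JPI-289 cells. The level was 15.1-fold higher in JPI-289 (log2 ratio 3.92, interval 3.61 to 4.27). No control PT-like cell had more than 3 Cd14 UMIs, whereas in the JPI-289 library 79 cells had 4 or more and 1 cell had 44. After each cell was thinned to 1000 UMIs, Cd14 was detected in 0.892% of 1345 control cells (interval 0.462 to 1.55) and 12.4% of 1142 JPI-289 cells (10.6 to 14.5), with median depths before thinning of 3466 and 3440.5 UMIs. Without thinning the shares were 4.34% of 1797 and 25.2% of 1652 cells. Thinned RBC-like cells gave 0 of 56 control cells, which allows up to 5.36%, and 5.38% of 93 JPI-289 cells (1.77 to 12.1, median UMIs 1860 and 1851 before thinning). The interval of the share in JPI-289 PT-like cells overlapped that in RBC-like cells, where red blood cell markers took 754583.9 CPM and left little room for other RNA. The level of 157 CPM (148 to 167) did not overlap that of JPI-289 RBC-like cells (44.1, 21.2 to 81.2). The RBC-like level is taken over all UMIs of the class, most of them of red blood cell markers. It is lowered by them, so this gap does not show that PT-like cells lie above free RNA.

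**Figure D3:**
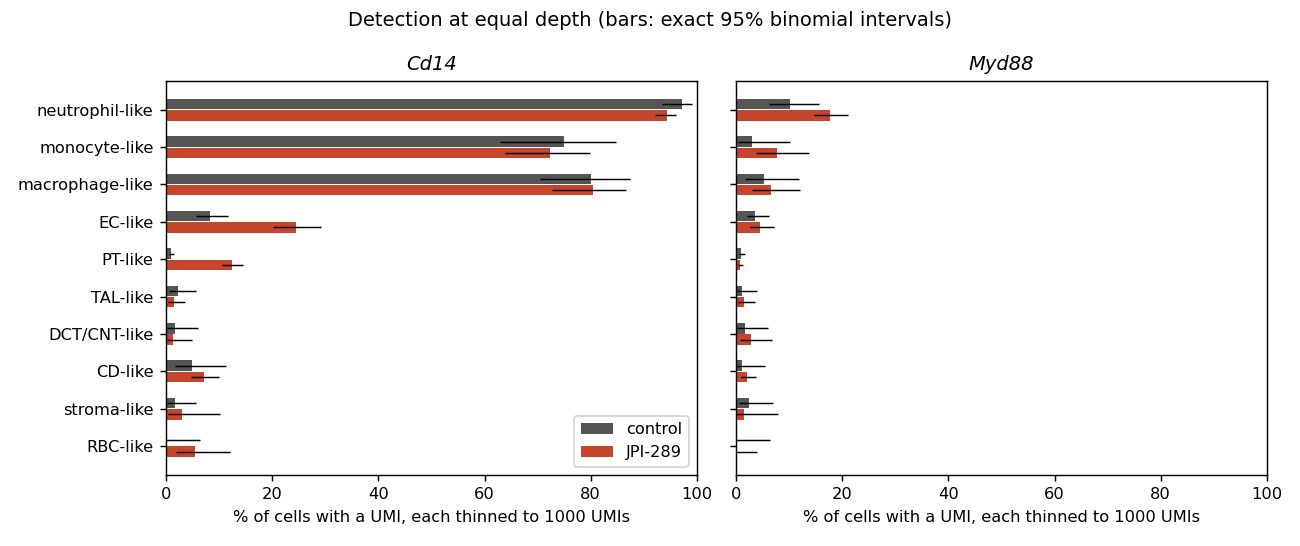
Percentage of cells with at least 1 UMI of Cd14 (left) and Myd88 (right) after each cell was thinned to 1000 UMIs, by class, in the control (grey) and JPI-289 (red) library. Bars start at 0 and error bars are exact 95% binomial intervals. Cd14 detection is 0.892% and 12.4% in PT-like cells and 8.31% and 24.4% in EC-like cells, and Myd88 stays at or below 17.7% in every class.

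No PT-like cluster had at least 50 cells in both libraries, so the PT-like difference could not be read within a cluster. Clusters with at least 50 cells of 1 library were set beside those of the other. The 4 control clusters ranged from 9.41 to 11.9 Cd14 CPM, and the 3 JPI-289 clusters had 66.4, 125 and 282. The cluster of 282 CPM, with 347 JPI-289 cells and 1 control cell, was led by the fibrinogen genes Fgg, Fgb and Fga. Without it the log2 ratio was 3.22. Cd14 was also set beside the injury marker Havcr1, which encodes KIM-1, within the JPI-289 library. Thinned PT-like cells with a Havcr1 UMI had Cd14 in 13.3% of 293 cells (9.64 to 17.7) and those without in 12.1% of 849 cells (10.0 to 14.5), with overlapping intervals. The Havcr1 level was 207 CPM in the cluster with 66.4 Cd14 CPM, 848 in the cluster with 125 and 277 in the cluster with 282, so that the first was lowest in both genes and the other two had opposite orders.

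**Figure D4:**
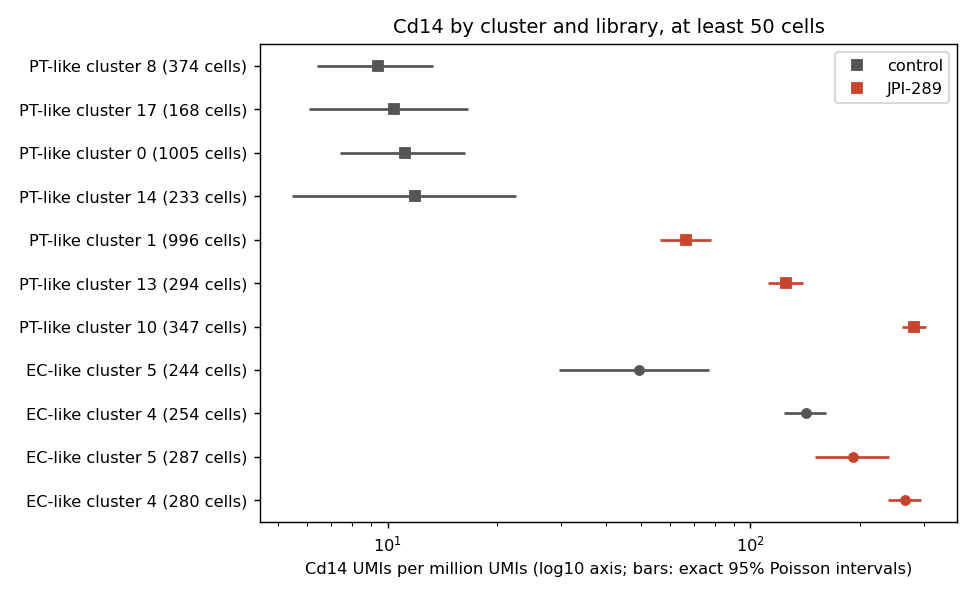
Cd14 CPM (horizontal axis, log10) in PT-like (squares) and EC-like (circles) clusters of the control (grey) and JPI-289 (red) library with at least 50 cells. Bars are exact 95% Poisson intervals. All JPI-289 PT-like clusters (66.4 to 282) lie above all control PT-like clusters (9.41 to 11.9).

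Neutrophil-like cells, which hold much Cd14 RNA, were 5.22% of control and 12.9% of JPI-289 cells. Barcodes of 100 to 300 UMIs, which hold mostly free RNA, had 31.8 Cd14 CPM in control and 179 in JPI-289 cells, the latter above the 157 of PT-like cells. S100a9, an abundant neutrophil gene, had 111 and 383 CPM in these barcodes and 14.8 and 37.4 in PT-like cells. If all S100a9 in PT-like cells were free RNA, free RNA would be 13.3% and 9.78% of their UMIs, and that share would carry 4.23 of the 10.3 CPM of Cd14 in the control and 17.5 of the 157 CPM with JPI-289. The number of Cd14 UMIs per S100a9 UMI was 0.700 in control and 4.21 in JPI-289 PT-like cells, and 0.154 and 0.108 in neutrophil-like cells. It was 3.78 and 2.44 in monocyte-like cells and 28.3 in JPI-289 macrophage-like cells, and control macrophage-like cells had 0 S100a9 UMIs. The scaling by S100a9 covers only RNA mixed as in the free RNA, and other leukocyte sources of Cd14 were not tested.

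Macrophage and monocyte genes other than Cd68 and Plac8 had at most 9 UMIs each in JPI-289 PT-like cells, whereas neutrophil genes were present. Lyz2, a lysozyme gene of macrophages, monocytes and neutrophils, had 5 UMIs there and 48 in control PT-like cells, and C1qa had 0 and 4. Lyz2 was also lower in JPI-289 macrophage-like (424 CPM, control 2448.4), monocyte-like (2955.6, control 11126.6) and neutrophil-like cells (212, control 795). C1qa had 859 UMIs in JPI-289 and 2370 in control macrophage-like cells. Fewer UMIs of these genes in PT-like cells thus do not by themselves show less leukocyte RNA there. Of the 10 macrophage markers 3 had a UMI in JPI-289 PT-like cells and 6 in control, with 108 and 95 UMIs in all, of which Cd68 gave 96 and 58. Of the 10 monocyte markers 5 and 6 had a UMI, with 82 and 189 in all, of which Plac8 gave 69 and 140. All 14 neutrophil markers had a UMI in JPI-289 PT-like cells, with 861 UMIs in all, against 2156 in control, where G0s2 alone gave 1891. S100a9 (275 UMIs, control 120), S100a8 (197, control 70) and Retnlg (192, control 45) were higher in JPI-289 PT-like cells, as Cd14 was. Every PT-like cell with a UMI of any of these markers or of Lyz2 was then left out. This kept 956 of 1797 control and 1182 of 1652 JPI-289 cells, with 20 and 711 Cd14 UMIs. Their levels were 9.09 and 162 CPM (log2 ratio 4.13, 3.52 to 4.88). The cells kept had medians of 1357 and 1589 UMIs, against 2256 and 1850 in the whole class. A shallow cell can lack a marker UMI by its depth, so the cells kept are not shown to be free of leukocyte RNA. The same limit holds wherever cells with leukocyte marker UMIs were left out.

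EC-like cells had 243 Cd14 UMIs in control and 430 in JPI-289 cells. The level was 2.02-fold higher (log2 ratio 1.01, 0.78 to 1.25). Detection in thinned cells was 8.31% of 361 control cells and 24.4% of 373 JPI-289 cells, with medians of 3211 and 3231 UMIs before thinning. Both EC-like clusters had the difference, with 142 and 266 CPM in one and 49.2 and 192 in the other. The summed neutrophil marker list was lower in JPI-289, with 279 CPM in control and 150 in JPI-289 cells, and S100a9 had 97.7 and 37.2, but its members Retnlg (12.7 and 22.6) and Hdc (6.10 and 12.8) were higher. Red blood cell markers were higher in JPI-289 EC-like cells too, with 119 and 1363.4 CPM, and their part in the result was not tested. If all S100a9 in EC-like cells were free RNA of barcodes with 100 to 300 UMIs, that RNA would carry 28.0 of the 124 and 17.4 of the 250 CPM. It would then be 87.8% of control and 9.71% of JPI-289 EC-like UMIs, where its estimated part was 10.6% and 9.04%. The scaling thus does not hold for control EC-like cells and sets no limit on Cd14 of leukocytes there. Other sources of their S100a9 were not tested. In EC-like cells without any leukocyte marker UMI the level was 108 and 239 CPM (log2 ratio 1.15).

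In neutrophil-like cells the Cd14 level was lower in JPI-289, with 3205 UMIs (7368.2 CPM) in control and 8423 (5231.3) in JPI-289 cells. This is a log2 ratio of -0.49 (-0.55 to -0.43), under 2-fold, while the cells were more numerous, so that their summed Cd14 UMIs were higher. Detection in thinned cells was 97.2% and 94.3%. Macrophage-like cells had 2243 and 2296 UMIs (log2 ratio 0.07, -0.01 to 0.16) and monocyte-like cells 1892 and 2167 (-0.18, -0.27 to -0.09), so Cd14 differed little in both of these classes. The macrophage-like cells of the JPI-289 library also carried 1917 UMIs of red blood cell markers and 81 of S100a9, against 48 and 0 in control, and their part in the macrophage values was not tested.

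Ly96 encodes MD-2, the protein that forms the binding pocket for lipopolysaccharide on TLR4 (chr1:16688051-16709611, plus strand). It had 236 UMIs in control cells and 115 in JPI-289 cells. Its ratio was below 0 in all 9 classes where it was not too sparse for a ratio. Yet the interval held 0 in stroma-like (-0.17, -2.09 to 1.30) and TAL-like cells (-0.49, -2.10 to 1.13). The same was true of DCT/CNT-like (-1.40, -4.97 to 1.03) and CD-like cells (-0.95, -2.29 to 0.28). PT-like cells had 89 UMIs (10.9 CPM) in control and 47 (6.39) in JPI-289 cells, a log2 ratio of -0.77 (-1.32 to -0.25). Without the cells that held leukocyte marker UMIs it was -0.52 with an interval that held 0 (-1.33 to 0.32). EC-like cells had 37 (18.8 CPM) and 8 (4.65), a 3.87-fold lower level (log2 ratio -1.95, -3.33 to -0.89). Monocyte-like cells had 29 and 9, or 44.6 and 10.7 CPM, a 4.03-fold lower level (-2.01, -3.33 to -0.94). Macrophage-like cells had 11 and 3 UMIs (-1.68, -4.32 to 0.09) and neutrophil-like cells 7 and 14 (-0.94, -2.29 to 0.66), and both of these intervals held 0. Ly96 and Cd14, whose products act on the same ligand, thus had ratios of opposite sign in PT-like and EC-like cells. The Ly96 level was also lower outside cells, with 8.34 and 4.25 CPM in barcodes of 100 to 300 UMIs. Over all barcodes, those of cells included, Ly96 had 392 and 176 UMIs. The classes share this free RNA, so the 9 ratios are not 9 separate results. With free RNA of the 100 to 300 UMI barcodes subtracted, the ratio was -0.76 in PT-like, -2.02 in EC-like and -1.99 in monocyte-like cells. In thinned cells Ly96 was detected in at most 4.41% of a class, in control monocyte-like cells, and RBC-like cells gave 1.79% and 1.08%, so its detection shares were not read further.

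Tlr4, the receptor of lipopolysaccharide and of several molecules from damaged tissue (chr4:66827584-66930284, plus strand), was found in leukocytes and endothelium. Its level in the control library was 159 CPM in neutrophil-like, 67.7 in monocyte-like, 37.6 in EC-like, 32.8 in macrophage-like and 20.6 in stroma-like cells, and the last 3 had overlapping intervals. PT-like cells had 2 and 3 UMIs among 8128178 and 7351636, and TAL-like cells 1 and 0. Neutrophil-like cells had 69 UMIs in control and 135 in JPI-289 cells, a lower level of 83.8 CPM in the latter (log2 ratio -0.92, -1.35 to -0.48). EC-like cells had 74 and 38 (-0.76, -1.38 to -0.19), and -0.55 with an interval that held 0 (-1.36 to 0.23) without cells that held leukocyte marker UMIs. The level was also lower in macrophage-like cells, with 18 and 5 UMIs (-1.71, -3.59 to -0.33). In monocyte-like cells the level was 67.7 CPM in both libraries, from 44 and 57 UMIs. In JPI-289 PT-like cells 1157 Cd14 UMIs thus stood beside 3 Tlr4 UMIs (0.408 CPM). Barcodes of 100 to 300 UMIs of that library had 179 Cd14 and 3.06 Tlr4 CPM. Whether the Cd14 RNA came from the PT-like cells themselves was not tested.

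Tlr2, which binds bacterial lipoproteins as a pair with TLR1 or TLR6 (chr3:83836272-83841767, minus strand), was found almost entirely in leukocytes. Neutrophil-like, macrophage-like and monocyte-like cells held 18.8%, 36.9% and 35.7% of its 325 UMIs in control cells and 54.9%, 26.3% and 13.8% of 521 in JPI-289 cells. Monocyte-like cells had 116 UMIs (179 CPM) in control and 72 (85.5) in JPI-289 cells, a 2.08-fold lower level (log2 ratio -1.06, -1.51 to -0.63). Neutrophil-like cells had 61 and 286 UMIs (0.33, -0.06 to 0.76) and macrophage-like cells 120 and 137 (0.23, -0.13 to 0.60), and these intervals held 0. PT-like cells had 4 and 2 UMIs, and EC-like cells 17 and 10 (-0.55, -1.86 to 0.63).

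Tlr3, the receptor of double-stranded RNA (chr8:45395665-45411080, minus strand), had most of its UMIs in endothelium and tubule segments. Its 82 UMIs in control cells included 28 in EC-like and 21 in PT-like cells, with 6 each in TAL-like, DCT/CNT-like, CD-like and stroma-like cells and 1 in all leukocyte classes. In the JPI-289 library EC-like cells had 16 (log2 ratio -0.60, -1.60 to 0.32) and PT-like cells 16 (-0.24, -1.28 to 0.76). No difference could be shown at these counts. The level was 14.2 and 9.29 CPM in EC-like and 2.58 and 2.18 in PT-like cells. Barcodes of 100 to 300 UMIs had 5.28 and 3.31 CPM, and control barcodes under 100 UMIs 11.3 (5 UMIs). The PT-like levels lay below these values. Yet free RNA of the 100 to 300 UMI barcodes was only a part of PT-like UMIs. Its estimated part was 5.52% in the control library and 5.02% in the treated one. Setting the PT-like level beside undiluted free RNA thus cannot decide where the Tlr3 UMIs came from. The counts do not by themselves show expression in PT-like cells, which was not tested. Gm45542 overlaps the gene on the other strand, and the counts do not show how such reads were assigned.

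Tlr7, a receptor of single-stranded RNA (chrX:167304929-167330558, minus strand), was again a leukocyte gene, with 57 UMIs in control and 90 in JPI-289 cells. Neutrophil-like cells had 4 UMIs (9.20 CPM) in control and 46 (28.6) in JPI-289 cells, a log2 ratio of 1.48 with a wide interval (0.18 to 3.57). Monocyte-like cells had 29 (44.6 CPM) and 15 (17.8), a log2 ratio of -1.30 (-2.33 to -0.38). Macrophage-like cells had 20 and 28 (0.52, -0.35 to 1.43). The highest share of neutrophil-like cells with a UMI after thinning was 3.96%, and RBC-like cells had 0 UMIs in both libraries. PT-like cells had 1 and 0.

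Tlr9, the receptor of CpG DNA (chr9:106222598-106226883, plus strand), had 5 and 2 UMIs in macrophage-like cells and 2 and 2 in monocyte-like cells. Neutrophil-like, EC-like and all tubule classes had 0, which allows up to 6.90 and 1.86 CPM in neutrophil-like cells and up to 0.369 and 0.408 in PT-like cells. No statement on a difference was possible.

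Tlr12 (chr4:128615443-128618619, minus strand) had a pattern of its own. PT-like cells held 75 of its 82 UMIs (91.5%) in control cells. In the JPI-289 library they held 3, a level of 0.408 against 9.23 CPM (log2 ratio -4.29, -6.81 to -2.90, or 19.5-fold). The control clusters led by Keg1, Pck1 and Fbp1 and by Cyp4a14, G6pc and Fbp1, genes of gluconeogenesis and fatty acid metabolism among them, had 13.2 and 10.6 CPM, and the other 2 large control clusters had 3.68 and 2.65. The 3 large JPI-289 clusters had 0.846, 0.387 and 0. The difference was also seen outside cells, with 80 and 7 UMIs in barcodes of 100 to 300 UMIs. Over all barcodes, those of cells included, Tlr12 had 230 and 16 UMIs. Over all PT-like genes a ratio past 2-fold lower was common (23.6%, as above), so the direction alone does not mark Tlr12. Macrophage-like cells had 3 and 2 UMIs, and neutrophil-like, EC-like, TAL-like and DCT/CNT-like cells had 0. Detection in thinned PT-like cells was 1.04% and 0.175%, and RBC-like cells had 0 in both libraries after thinning, which allows up to 5.36% and 3.23%. The control PT-like level of 9.23 CPM (7.26 to 11.6) stood beside 13.6 CPM in barcodes under 100 UMIs (6 UMIs) and 6.12 CPM in those of 100 to 300 UMIs. RBC-like cells had 7.02 CPM (1 UMI, 0.178 to 39.1). Free RNA of these 2 barcode sets was estimated at 9.00% and 5.52% of control PT-like UMIs. A comparison with free RNA alone thus cannot decide whether the Tlr12 UMIs came from PT-like cells, which was not tested. The 0 UMIs in control EC-like cells allow up to 1.53 CPM and those in TAL-like cells up to 3.47.

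Tlr13, the receptor of bacterial ribosomal RNA (chrX:106143204-106160493, plus strand), was found in all 3 leukocyte classes, with its highest level in neutrophil-like cells of either library, although in JPI-289 the interval of that level overlapped the one in macrophage-like cells. Neutrophil-like cells had 128 UMIs (294 CPM) in control and 309 (192) in JPI-289 cells, a log2 ratio of -0.62 (-0.92 to -0.31). Macrophage-like cells had 97 and 75 (-0.33, -0.79 to 0.12) and monocyte-like cells 101 and 117 (-0.16, -0.56 to 0.24), with levels from 139 to 177 CPM. EC-like cells had 8 and 1 UMIs, PT-like cells 4 and 0, and TAL-like cells 0 and 3.

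Myd88, the shared adaptor (chr9:119335934-119341411, minus strand), had UMIs in every class with the exception of RBC-like cells. Its level in the control library was 98.9 CPM in neutrophil-like, 71.2 in macrophage-like, 57.0 in monocyte-like and 43.2 in EC-like cells, and 9.72 in PT-like cells, the lowest of these. Neutrophil-like cells had 43 UMIs in control and 287 (178 CPM) in JPI-289 cells, a 1.79-fold higher level (log2 ratio 0.84, 0.38 to 1.35). Detection in thinned neutrophil-like cells was 10.2% of 177 and 17.7% of 581 cells. PT-like cells had 79 and 111 UMIs (15.1 CPM in JPI-289), a log2 ratio of 0.63 (0.21 to 1.07). Without PT-like cells that held leukocyte marker UMIs the ratio was 0.31 with an interval that held 0 (-0.37 to 1.08). Detection in thinned PT-like cells had the other order, with 0.967% of 1345 control and 0.613% of 1142 JPI-289 cells and overlapping intervals. Barcodes of 100 to 300 UMIs had 11.4 and 15.6 Myd88 CPM, which the PT-like levels did not exceed. Free RNA of these barcodes was only a part of PT-like UMIs, estimated at 5.52% in the control library and 5.02% in the treated one. The comparison thus cannot decide whether the Myd88 UMIs came from PT-like cells, which was not tested. EC-like (-0.31, -0.81 to 0.18), macrophage-like (0.04, -0.64 to 0.72) and monocyte-like cells (0.24, -0.37 to 0.89) showed no difference beyond counting error. Myd88 overlaps Slc22a14 on its own strand and Acaa1a on the other, so reads in the shared parts may have been lost or assigned to either gene.

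Cd14, Tlr2 and Tlr13 had like patterns over the 20 points given by 10 classes in 2 libraries. Pearson's r of log2(CPM + 10) was 0.979 between Tlr2 and Tlr13, 0.951 between Cd14 and Tlr2 and 0.946 between Cd14 and Tlr13, and 0.365 between Cd14 and Ly96. The points share libraries and free RNA, and r is a description. The genes most like Cd14 were Slc7a11, a cystine transporter (0.964), Rel, an NF-kB subunit (0.957), and Tyrobp, a leukocyte signalling adaptor (0.957). Those most like Tlr13 were Igsf6 (0.997), Ccr1 and C5ar1 (0.994 each), those most like Tlr2 were Laptm5 (0.990), Cyth4 and Il10ra (0.988 each), and those most like Tlr4 were Morrbid (0.975), Adgre5 (0.969) and Cpne2 (0.960). Myd88 was most like Mcl1 (0.967), Nfkbia (0.962) and Ptpn1 (0.959), and Ly96, with only 323 UMIs, most like Rap1gds1 (0.833), Zfp638 (0.824) and Vps13c (0.813). Of the other members each had under 200 UMIs and none was compared.

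Members were set beside each other within cells only after thinning, which lowers the number of cells with UMIs of more than 1 receptor. In control monocyte-like cells Tlr2 was detected in 55.1% and Tlr13 in 66.7% without thinning, so some cells held both. After thinning these shares were 11.8% and 19.1%. Cells with more than 1 receptor were not counted without thinning. In thinned neutrophil-like cells of the JPI-289 library, Tlr13 was detected in 17.2% of 87 cells with a Tlr2 UMI (9.98 to 26.8) and 19.4% of 494 cells without (16.0 to 23.2). Myd88 was detected in 19.5% of the former and 17.4% of the latter, with overlapping intervals. Cd14 was detected in nearly all neutrophil-like cells, also in those without a Tlr4 UMI (96.6% in control and 93.9% in JPI-289), so no link with Tlr4 could be read there. In EC-like cells only 19 control and 6 JPI-289 cells had a Tlr4 UMI after thinning, of which 1 and 2 also had Cd14.

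Other genes of the pathway were described from 8 lists with 67 genes in all, of which 48 were measured in PT-like cells, 7 past 2-fold higher and 12 lower, with a median log2 ratio of -0.06 against -0.19 for all genes. The shares called over all genes were 9.14% and 23.6%. Rela, the p65 subunit of NF-kB, had 121 and 396 UMIs (log2 ratio 1.85, 1.56 to 2.16) and Tnip1, an inhibitor of the pathway, 36 and 107 (1.70). Of the targets, 0 of 7 measured were past 2-fold higher and 4 lower. Cxcl1, a neutrophil attractant, had 1166 and 184 UMIs in PT-like cells (-2.52, -2.75 to -2.29) and Icam1, an adhesion molecule, 276 and 54 (-2.20, -2.66 to -1.78). PT-like cells of the JPI-289 library thus had a higher Cd14 and lower Cxcl1 and Icam1 levels. Of the released ligands with most UMIs, Hmgb1 had 2548 and 3785 UMIs (0.72) and the mitochondrial chaperone Hspd1 2904 and 3086 (0.23), and Hsp90b1, the chaperone that folds toll-like receptors, had 1794 and 1061 (-0.61).

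In EC-like cells 50 pathway genes were measured, 5 past 2-fold higher and 13 lower, where 5.18% and 18.4% of all genes were, with a median of -0.27 against -0.18 for all genes. Traf6, the ubiquitin ligase below MyD88, had 47 and 125 UMIs (1.59, 1.11 to 2.12), Tirap, the adaptor that brings MyD88 to TLR2 and TLR4, 35 and 79 (1.35, 0.77 to 1.98), and Sigirr, an inhibitory receptor, 51 and 6 (-2.80). The monocyte attractant Ccl2 had 383 and 22 (-3.90, -4.62 to -3.31). The other 3 past 2-fold higher, named after their values were seen, were Irak3 (1.28), Tab3 (1.16) and Vcan (3.15), the last with only 2 and 19 UMIs. The 3 with most UMIs were Nfkbia, the NF-kB inhibitor (0.48), Hspa1a (0.39) and Hmgb1 (0.55).

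The leukocyte classes had 48, 46 and 49 pathway genes measured in neutrophil-like, macrophage-like and monocyte-like cells, with medians of 0.03, 0.13 and -0.27 against 0.10, -0.03 and 0.04 for all genes. In neutrophil-like cells 3 were past 2-fold higher and 3 lower, where 11.5% and 10.5% of all genes were. The higher were Ccl2 (1.64), Ikbke (1.24) and Tab2 (1.11), and the lower Irf7 (-1.89), Irf3 (-1.78) and Cd36 (-1.49), of which all but Tab2 had under 50 UMIs and were named after their values were seen. S100a9, S100a8 and Cxcl2 had the most UMIs with log2 ratios of 0.02, 0.18 and -0.37. Among genes with at least 50 UMIs, Tab2 and Tollip (0.77) lay highest and Irak4 (-0.98) and Tnip1 (-0.64) lowest. In macrophage-like cells 9 were higher and 8 lower, where 11.0% and 17.2% of all genes were. Cxcl2 (-0.05), Nfkbia (0.41) and Il1b (-0.85) had most UMIs there, Ccl2 had 320 and 3 UMIs (-6.48, -8.98 to -5.14), Hspa1a 749 and 90 (-3.01) and Traf6 18 and 39 (1.13), and S100a8, with 9 and 84 UMIs (3.19), was higher there together with the neutrophil gene S100a9 named above. In monocyte-like cells 2 were higher and 10 lower, against 10.4% and 12.6% of all genes. Ccl2 had 1169 and 490 UMIs there (-1.63, -1.78 to -1.48) and Ccl4 137 and 61 (-1.54), Tollip (1.31) and Tab2 (1.20) lay highest, and Cxcl2 (-0.45), S100a8 (-0.45) and Nfkbia (0.41) had most UMIs. In TAL-like cells 8 of 37 were higher and 3 lower (8.61% and 10.6% of all genes), the latter being Sigirr (-1.82), Hspa1a (-1.36) and Irf3 (-1.26). The higher were S100a8 (2.20), Il1b (2.13), Cxcl10 (2.07), S100a9 (2.02), Traf6 (1.45), Rela (1.37), Nfkbia (1.24) and Irak2 (1.16). In CD-like cells 11 of 39 were higher and 5 lower (7.39% and 13.9% of all genes), the latter being Irf3 (-2.67), Cxcl1 (-1.93), Unc93b1 (-1.73), Nfkb2 (-1.61) and Ticam1 (-1.27). The higher were S100a9 (5.90), S100a8 (5.76), Tnf (4.13), Cxcl2 (3.54), Tollip (1.92), Traf6 (1.88), Irak2 (1.52), Tirap (1.36), Tab3 (1.06), Icam1 (1.03) and Il1b, with 0 and 234 UMIs. The TAL-like and CD-like genes were likewise named after their values were seen. In CD-like cells the neutrophil genes S100a8 and S100a9 had 3 and 4 UMIs in control and 248 and 352 in JPI-289 cells. In TAL-like cells S100a8 had 5 and 35 UMIs, S100a9 7 and 42 and Il1b 3 and 21. The part of neutrophil RNA in these counts was not tested in either class. The CD-like class also differed in make-up. Its cluster led by Aqp2 and Sprr2f had 59 control and 377 JPI-289 cells, and its cluster led by Atp6v1g3 had 68 and 70. Median UMIs of the class were 6013 and 1561, so the CD-like ratios do not set like cells against each other.

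**Figure D5:**
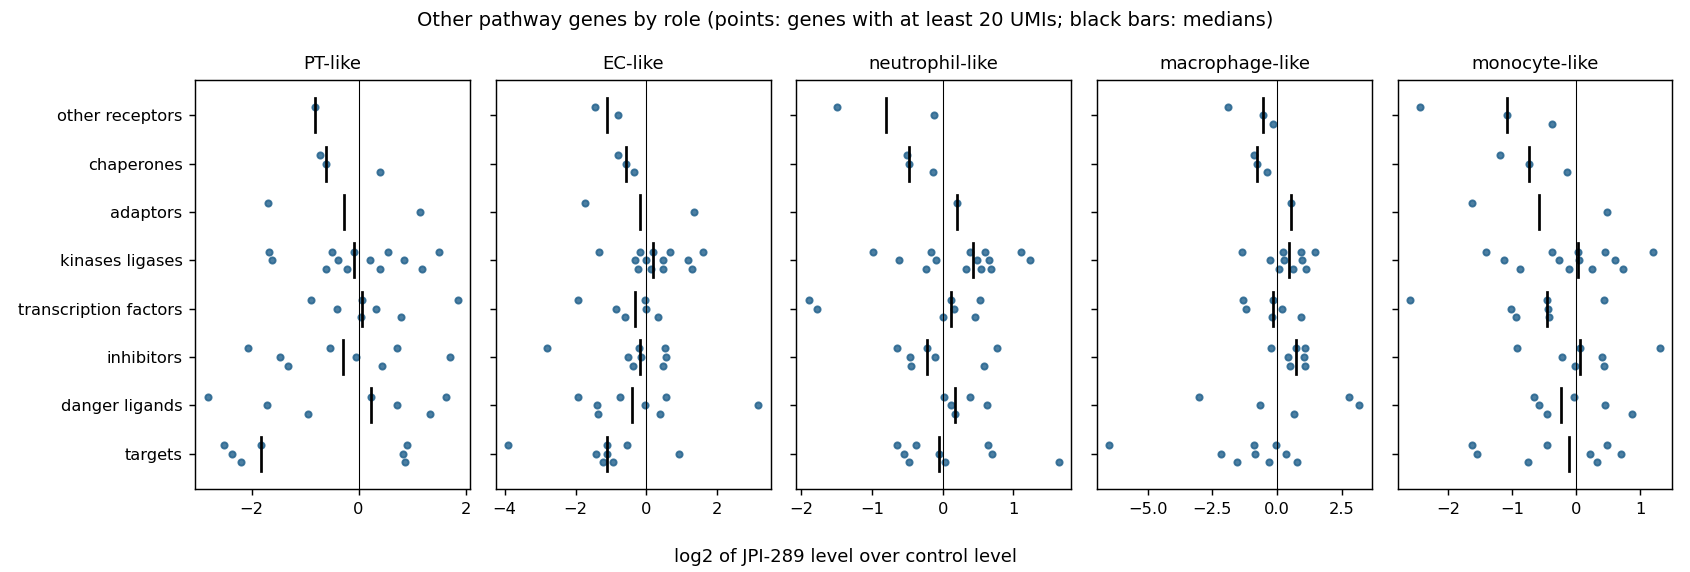
Log2 ratio of the JPI-289 over the control level (horizontal axis) of pathway genes other than the 10 members, by role, in 5 classes. Each point is a gene with at least 20 UMIs and the black bars are medians of a list. The median of the targets is -1.82 in PT-like and -1.11 in EC-like cells and -0.05 in neutrophil-like cells.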

How the data were processed

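Both count matrices were deposited by the authors as raw UMIs of every barcode, made from a 5′ single-cell kit with Cell Ranger 5.0.1 on mm10 according to the submitters' processing notes. No sample column was left unused (0). Cells were called by total UMIs and then, from 500 UMIs, against the profile of empty barcodes with 10000 simulations at a false discovery rate of 0.01, and cells with over 50% mitochondrial UMIs (545 control and 396 JPI-289) were left out.

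Cells were scaled to 10000 UMIs, and 2000 variable genes without the members and pathway genes, 30 principal components, 20 neighbours and Leiden resolution 1 were used, with no correction between libraries. The leading marker list named a cluster at a mean log2 score of at least 0.75 with 3 markers detected and 0.5 above the next list, and a list score under 2 needed an own marker among the 10 leading genes. A cluster led by the injured PT list was named PT-like where the PT list came next with a score of at least 0.75. The naming was settled with the clusters in view, and 137 control and 382 JPI-289 cells stayed unnamed. Doublets were not removed; 1 alternative dropped the top 5% of scrublet scores.

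UMIs were summed per class and library, and exact binomial and Poisson intervals were computed. Counts for JPI-289 against control were simulated from the Poisson model that the intervals assume, with 200 of 11694 genes changed. Of these genes 96.0% had their true ratio inside the interval. Such coverage follows from the shared model, and the simulation left out the spread of UMIs between cells. The members, lists and rules were chosen with earlier results of these data known. The other pathway genes named are, per main class, the 3 with most UMIs and the 2 with the highest and the 2 with the lowest ratio, counting genes of at least 50 UMIs, and the genes most like a member are the 3 with the highest r. Alternatives were calling by the UMI threshold alone, a minimum of 1000 UMIs, a mitochondrial limit of 20%, resolution 0.5, each library clustered alone, pathway genes among the variable genes, nuclear genes as denominator, centring on all genes, equal weight of cells, 1 CPM added, other gene minimums and depths, and subtraction of free RNA from barcodes under 100 UMIs. Another 4 were added after seeing the data. The tools were scanpy 1.11.5 with leidenalg 0.10.2, scipy 1.17.1 and numpy 2.4.6 under Python 3.11.15. Public normal kidneys that the study combined with these libraries were not used here.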

Additional observations from a re-analysis of the deposited data

Results flagged for a closer look

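The log2 ratio of Cd14 differed in sign between cell classes, with counting intervals that left out 0 on both sides. It was 3.92 in PT-like and 1.01 in EC-like cells, and -0.82 in TAL-like, -0.49 in neutrophil-like and -0.18 in monocyte-like cells. The TAL-like ratio was 0.37 with each cell weighted equally and -0.28 (-1.23 to 0.72) without cells that held leukocyte marker UMIs, so its sign was not settled. Tlr7 was at 1.48 in neutrophil-like and -1.30 in monocyte-like cells. With 1 library per condition the difference between classes was not tested.

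Cd14 was also read in a cluster that no marker list named, with 59 control and 53 JPI-289 cells, led by Slc14a2, Bst1, Epcam and Tert. Its level was 281 CPM in control and 175 in JPI-289 cells, from 175 and 79 UMIs, above the RBC-like level of either library. That RBC-like level is lowered by the red blood cell markers in its total, and barcodes of 100 to 300 UMIs had 31.8 and 179 Cd14 CPM.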

How the results depend on the processing

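Of 43 ratios of members, 10 were past 2-fold, and all 10 kept their sign under every one of the 12 planned and 4 added alternatives that gave a value, but 3 fell inside 2-fold under at least 1. These were Cd14 in EC-like cells (0.95 with the UMI threshold step alone and 0.93 with free RNA of barcodes with 100 to 300 UMIs subtracted), Tlr7 in neutrophil-like cells (0.75 with the UMI threshold step alone) and Tlr2 in monocyte-like cells (-0.98 without the 5% highest doublet scores). Of the 43, 9 took the other sign under at least 1. The Cd14 ratio in PT-like cells (3.92) was 8.34 with free RNA subtracted, where the control count fell to the floor of 3 and the value is a bound, and 3.22 without the cluster led by Fgg, Fgb and Fga, an alternative added after seeing the data. In EC-like cells (1.01) Cd14 was also at 1.32 with each library clustered alone and 1.33 with each cell weighted equally, and in neutrophil-like cells (-0.49) at -0.39 with the UMI threshold step alone and -0.60 after centring on all genes. Tlr12 in PT-like cells (-4.29) was at -2.86 with 1 CPM added. Detection of Cd14 in PT-like cells was 7.63% in JPI-289 at 500 UMIs, and 4.34% and 25.2% in the libraries with no thinning. The log2 of the neutrophil-like over the macrophage-like and monocyte-like Cd14 level (0.77) was 0.81 with equal weights, 1.09 in control and 0.69 in JPI-289 cells. The cause of these shifts was not tested.

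Counts of pathway genes past 2-fold followed the gene minimum. With at least 100 UMIs the higher counts fell to 3 (TAL-like, from 8), 5 (CD-like, from 11), 3 (EC-like, from 5) and 1 in neutrophil-like (from 3), macrophage-like (from 9) and monocyte-like cells (from 2), and the lower counts to 6 (PT-like, from 12), 1 (TAL-like, from 3), 0 (CD-like, from 5), 7 (EC-like, from 13), 0 (neutrophil-like, from 3) and 3 (monocyte-like, from 10). With at least 5 UMIs they were 18 higher in CD-like, 5 in neutrophil-like and 4 in monocyte-like cells, and 5 lower in TAL-like and 6 in neutrophil-like cells. At a log2 ratio past 0.58 they were 14 higher in PT-like (from 7), 14 in TAL-like, 11 in neutrophil-like, 16 in macrophage-like and 6 in monocyte-like cells, and 6 lower in TAL-like, 7 in neutrophil-like, 13 in macrophage-like (from 8) and 16 in monocyte-like cells. No paired analysis was possible because each condition has 1 library. Resolution 0.5 and the control library clustered alone gave no separate monocyte-like class. With resolution 0.5 and with each library clustered alone, macrophage-like and monocyte-like ratios were therefore computed only for both classes together. Resolution 0.5 also gave no ratio for TAL-like cells.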
